A study of Mus musculus with 42 samples.

Results

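A set of 10 genes of amino acid transport and of the integrated stress response were followed through the mouse colon libraries of this study: Slc3a1, Slc3a2, Slc7a5, Slc7a9, Slc7a11, Asns, Chac1, Trib3, Ddit3 and Atf4. They are 10 of the 20462 genes listed in any of the 9 deposited tables, and all 10 were present in each table. The genes were taken by name, and the set was selected on the levels of Slc3a1 and Slc7a5, which were higher in WT distal crypts after dextran sulfate sodium (DSS) than in untreated crypts of the P209T colony. The values of that contrast are therefore given as a description, without a test.

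Slc3a1 and Slc3a2 encode the heavy chains of 2-part amino acid transporters, which carry their light chains to the membrane. Slc7a9 is the light chain of Slc3a1 and takes up cystine and basic amino acids, while Slc7a5 (LAT1, large neutral amino acids) and Slc7a11 (xCT, cystine in exchange for glutamate) pair with Slc3a2. In the integrated stress response, kinases phosphorylate the translation factor eIF2 when amino acids are short or proteins misfold, which lowers translation in general but raises that of the transcription factor ATF4. ATF4 switches on genes of amino acid uptake and synthesis, among them Asns (asparagine synthetase), and stress genes such as Chac1 (which degrades glutathione), Trib3 (a pseudokinase) and Ddit3 (the transcription factor CHOP). Since ATF4 is controlled largely at translation, its mRNA level is not a measure of its activity.

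RNA was sequenced from 42 libraries under 14 conditions. Mtg16 (Cbfa2t3) encodes a transcriptional corepressor, and the mice, on a C57/BL6 background and at least 8 weeks old, were Mtg16-/- (knockout, called Mtg16-null in the labels), homozygous for the Mtg16 point mutation P209T (T/T), or WT littermates from each of these separate colonies. EDTA chelation released crypts from the proximal colon, the 5 cm beside the cecum (2 libraries each of WT and Mtg16-/-, and 2 each of WT and T/T) and from the distal colon, the 5 cm beside the anus (4 WT and 4 Mtg16-/-, and 3 WT and 4 T/T). Distal crypts were also taken after 5 days of 2% DSS, which injures the epithelium, and 4 days of water (3 WT and 4 Mtg16-/-, and 3 WT and 3 T/T), and 3 WT and 3 T/T distal tumors were dissected after 10 mg/kg azoxymethane and 3 cycles of 3% DSS (4 days each, with 16 days of water). The sources used here do not say which tissues of Mtg16-/- mice lack the gene or how much of its transcript remains, and nothing in them says that libraries were from pooled mice.

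In the 38 libraries for which whole reads were recovered there were 32231389 to 74661961 reads. In distal crypts after DSS, Cbfa2t3 ranged from 427 to 595 normalized counts (reads divided by the library's size factor) in Mtg16-/- and from 1845 to 2519 in WT, but in untreated distal crypts it ranged from 424 to 1095 in Mtg16-/- and from 1027 to 1809 in WT. These groups overlapped through 1 library, replicate 2 at 1095, and without it Mtg16-/- ranged from 424 to 694, below all WT libraries. The P209T change is a point mutation and is not checked by the level of the gene. Epithelial markers were high in crypts (mean log2(CPM + 1) of 6 markers 9.90 to 10.65, where CPM is reads scaled to the library total), and lower in tumors (8.45 to 9.05), in which fibroblast markers were high (7.51 to 8.13, against 0.11 to 2.84 in crypts). In bulk libraries, fewer cells of a type and less RNA per cell cannot be told apart.

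Among the libraries with recovered reads, a single one went against its label, and the proximal mutant libraries were not scored. Untreated distal Mtg16-/- replicate 2 had a mean log2(CPM + 1) of 5.30 over the 50 genes most higher in proximal than in distal WT crypts (the 10 genes left out), where the other distal Mtg16-/- libraries had 0.61 to 0.93 and proximal WT libraries 5.32 to 5.55. Over the 50 genes most higher in distal WT crypts it had 0.85, against 4.50 to 4.75 in the other 3. The called values of the 10 genes in Mtg16-/- crypts are given with and without it, while the counts of other gene lists and the correlations include it.

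The 250 bases before each start in the RefSeq promoters (GRCm38.p6) were searched on both strands, and bases after the start were not. The motifs were TGATGNAA, the C/EBP-ATF response element that ATF4 binds with C/EBP partners, and TGACNNNGC, the antioxidant response element. Promoters were listed for 9 of the 10 genes, without Slc7a5. TGATGNAA was found in 1134 of all 32851 promoters (3.45%), and among the members in those of Slc7a11, Asns and Chac1. TGACNNNGC was found in 10.2% of promoters and, among the members, in that of Asns. These windows are shown because the letters are shared by a transporter, a synthetase and a stress gene that moved differently below. The matches are a description of letters and not of binding. Windows are written 5′ to 3′ along the gene, with the TGATGNAA matches in capitals (a match on the other strand is shown as its reverse complement), from chr3:50443628-50443704 on the minus strand for Slc7a11, chr6:7693214-7693243 on the minus strand for Asns and chr2:119351024-119351081 on the plus strand for Chac1.
Slc7a11: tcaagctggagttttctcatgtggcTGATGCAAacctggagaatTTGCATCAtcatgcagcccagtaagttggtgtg
Asns: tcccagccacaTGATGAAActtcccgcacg
Chac1: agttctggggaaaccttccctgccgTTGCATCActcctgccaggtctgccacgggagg

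On the joint scale of 38 libraries, CPM divided by the length of the longest coding transcript ordered the genes by level per kilobase. Atf4 was the most abundant by this measure (60.2 to 85.6 over the means of 12 conditions). Asns (15.3 to 39.7) and Slc3a2 (15.5 to 31.5) followed with overlapping ranges. Trib3 reached the lowest value (0.0669 to 0.888), and Chac1 lay between 0.393 and 2.21. Slc3a1 had the widest range, 0.309 in T/T tumors to 39.0 in proximal WT crypts.

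**Figure D1:**
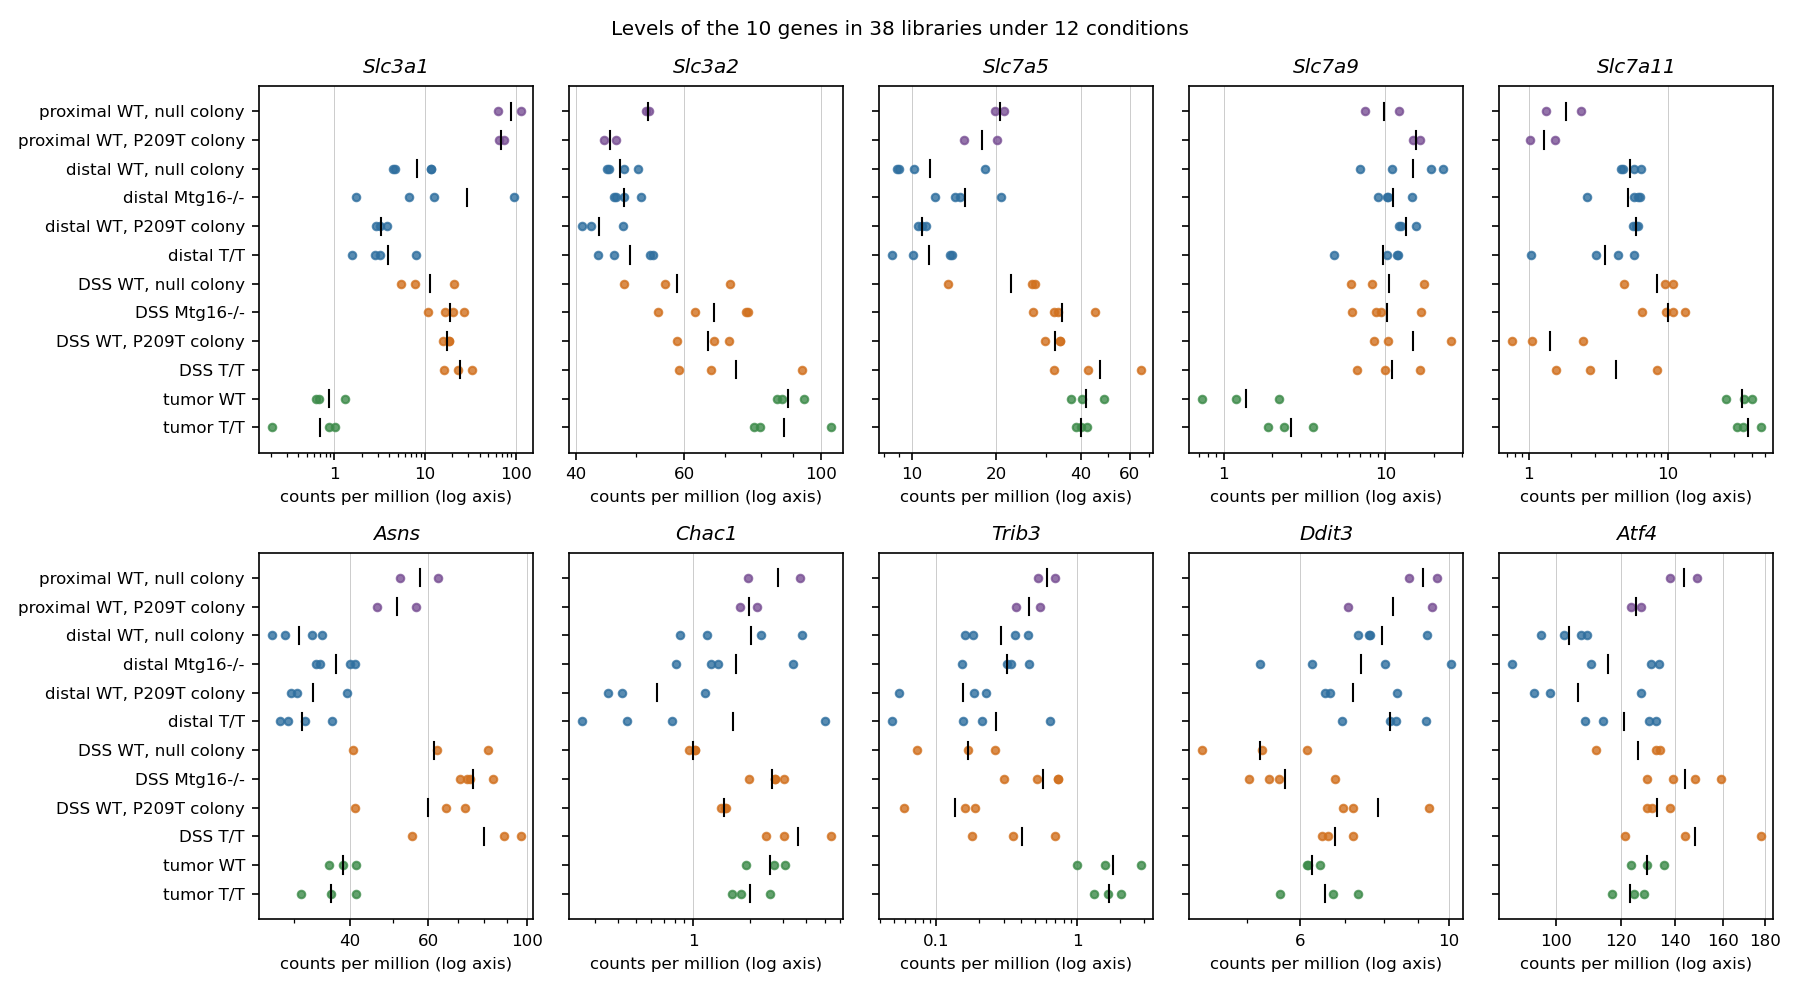
Level of each of the 10 genes in CPM (log axis) in 38 libraries under 12 conditions; points are libraries and black bars are means. Slc3a1 was highest in proximal crypts and lowest in tumors, where Slc7a11 and Trib3 were highest, and the mean of Slc3a1 in untreated distal Mtg16-/- crypts (29.4) rests on 1 library.

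Segment was the largest difference for Slc3a1. In WT crypts, Slc3a1 (chr17:85028376-85064236, plus strand) was at 2685, 4913, 2764 and 3168 normalized counts in the 4 proximal libraries and at 187, 498, 194, 501, 159, 134 and 121 in the 7 distal ones. No distal library reached any proximal one, and the log2 fold change was -3.90 ± 0.38 (SE). The last 3 distal libraries are the untreated ones of the contrast that chose Slc3a1 and Slc7a5, so for these 2 genes the pooled difference is given without a test. Sequencing request 4149, with 2 proximal and 2 distal libraries, holds none of them, and there Slc3a1 was lower in distal crypts by -3.54 ± 0.49 (limma adjusted p = 0.00774). It shares 601 exon bases with Prepl on the opposite strand, and whether counting used strand is not stated in the sources used here. Prepl did not show this pattern, at 44.3 to 45.3 CPM in proximal and 47.4 to 58.6 in distal WT crypts.

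The cystine exchanger Slc7a11 (chr3:49892526-50443614, minus strand) had the opposite segment pattern. It was at 102, 57.2, 66.2 and 43.5 normalized counts in proximal libraries and at 202, 272, 241, 199, 249, 235 and 261 in distal ones. The groups did not overlap, and Slc7a11 was higher in distal crypts (log2 fold change 1.86 ± 0.19, adjusted p = 3.53e-06). Asns (chr6:7675169-7693254, minus strand) was at 2676, 2228, 2392 and 1969 proximally and between 1134 and 1664, lowest to highest, distally. These groups were again separate (log2 fold change -0.78 ± 0.11, adjusted p = 4.78e-05).

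Of the 8 genes other than Slc3a1 and Slc7a5, 4 passed the threshold between segments (adjusted p below 0.05), where 42.1% of all genes tested did. Of these, 1 was called higher in distal crypts (20.1% of all genes) and 3 lower (22%), with a median log2 fold change of -0.29 over the 8 and 0.00 over all genes. Atf4 and Trib3 were also lower in distal crypts, by log2 fold changes of -0.37 (adjusted p = 0.00248) and -1.30 (adjusted p = 0.0269), and Slc7a5 differed by -0.80, each with overlapping groups. The remaining 4 did not pass (Slc3a2 -0.11, Slc7a9 0.13, Chac1 -1.10 and Ddit3 -0.20). The libraries came from 3 sequencing requests. Within request 4149, Slc7a11 (1.50), Asns (-0.77) and Atf4 (-0.45) passed as Slc3a1 did, Slc7a5 (-0.60, adjusted p = 0.263) and Trib3 (-1.03, adjusted p = 0.321) did not, and Slc7a9, the partner of Slc3a1, passed with a higher level in distal crypts (1.11, adjusted p = 0.0475). In that fit 14.5% of all genes were called. Trib3 also lost its call without proximal WT replicate 1 or 2 of the Mtg16-null colony or replicate 2 of the P209T colony (adjusted p up to 0.0839), and Chac1 gained one without distal WT replicate 4 of the Mtg16-null colony (-1.40, adjusted p = 0.0231). Of the other ATF4 pathway targets listed, 2 of 23 were higher in distal crypts (Ddit4, Gdf15) and 8 lower, among them the stress gene Nupr1 (-2.38) and Cth, which makes cysteine (-0.92). Of other amino acid transporters, 7 of 24 were higher, led by the proton-coupled transporter Slc36a1 (2.74) and the peptide transporter Slc15a1 (4.48), and 7 lower. Cell markers moved with segment too: T cell markers (5 genes) had means of 2.81 to 3.34 log2(CPM + 1) in proximal and 1.07 to 2.33 in distal WT crypts, absorptive colonocyte markers (5 genes) 9.32 to 9.60 and 7.95 to 8.76, although 3 of these 5 were called higher and 2 lower in distal crypts (median log2 fold change 0.38), and epithelial markers 10.36 to 10.65 and 9.95 to 10.35. Other markers overlapped between segments. Plasma cell markers (3 genes) had 1.57 to 2.44 in proximal and 1.09 to 1.81 in distal WT crypts, ileal and Paneth cell markers (4 genes) 2.31 to 5.09 and 1.72 to 2.70, and myeloid markers (9 genes) 1.89 to 2.16 and 1.71 to 2.26. The part of these markers in the differences between segments was not tested.

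**Figure D2:**
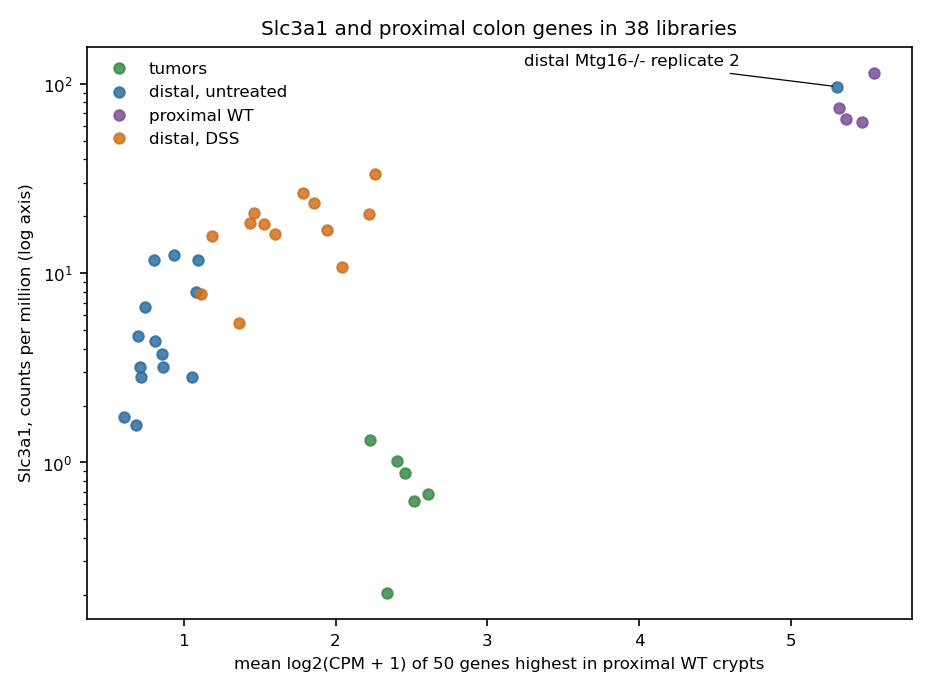
Slc3a1 in CPM (log axis) against the mean log2(CPM + 1) of the 50 genes highest in proximal WT crypts, 1 point per library (38 libraries). Untreated distal Mtg16-/- replicate 2 sits among the proximal WT libraries, crypts after DSS lie above the other untreated distal ones on the proximal-gene axis but overlap them in Slc3a1, where they reach 33.2 CPM, and tumors are lowest.

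In the contrast that chose 2 of the genes, WT distal crypts of the P209T colony, Slc3a1 was at 815, 819 and 688 normalized counts after DSS and at 173, 144 and 129 without it. Slc7a5 (chr8:121881150-121907694, minus strand) was at 1497, 1340 and 1472 after DSS and at 517, 475 and 496 without. The log2 fold changes were 2.38 for Slc3a1 and 1.53 for Slc7a5. Of all genes, 35.6% passed the threshold there, 14% higher and 21.6% lower. Slc3a2, the heavy chain of Slc7a5, differed by 0.54 and Asns by 0.78. Slc7a11 went the other way, at 46.7, 34.1 and 108 after DSS and 272, 253 and 278 without (-2.24). Relative to the mean of the 6 libraries, levels in DSS replicates 1 and 2 went down with transcript length (-0.22 and -0.31 log2 units per doubling), against 0.15 to 0.17 in the untreated libraries, and Slc7a11 has the longest transcript of the 10 (9223 bases). With the length trend removed, a step chosen after seeing the data, Slc7a11 differed by -1.74. Leaving out 1 of the 6 libraries moved the number of genes passing the threshold from 4833 to between 1 (without untreated replicate 2) and 9086 (without DSS replicate 3).

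The same treatment in libraries that did not choose the genes was tested in 3 further groups, with reads of different tables scaled together by TMM. The set was selected because Slc3a1 and Slc7a5 were higher after DSS. Counts and medians that include these 2 genes are therefore not independent of that choice. The T/T crypts were sequenced under requests 5740 (DSS) and 5094 (untreated), the same as in the choosing contrast, so DSS and request are joined in the same way in both. In T/T crypts Slc7a5 was at 1767, 1344 and 2697 scaled counts after DSS and at 594, 359, 420 and 550 without. All 3 DSS libraries were above all untreated ones (log2 fold change 1.98 ± 0.28, adjusted p = 0.0136). Slc3a1 was at 1382, 973 and 661 after DSS and at 137, 119, 65.0 and 319 without, likewise without overlap (2.81 ± 0.51, adjusted p = 0.0293). Asns was at 3677, 2302 and 3976 after DSS, above the 1127 to 1561 of untreated crypts (1.31 ± 0.23, adjusted p = 0.0246). These 3 of 10 genes rose, where 2.46% of genes tested were called higher (4.05% in either direction), and the median over the 10 was 0.69 against -0.04 over all genes. Of the 3, only Asns was not a gene on which the set was selected. With this few libraries the calls depended on single ones. Slc3a1 was no longer called without untreated T/T replicate 1, 2 or 3 or DSS replicate 1 or 3 (adjusted p up to 0.140), Slc7a5 without untreated replicate 2 or 3 or DSS replicate 1 (up to 0.0827), and Asns without untreated replicate 2, 3 or 4 or DSS replicate 1 or 3 (up to 0.129). Chac1, at 101, 127 and 222 after DSS and at 216, 10.8, 32.0 and 17.9 without, gained a call without untreated replicate 1, the library at 216 (2.88, adjusted p = 0.0381, against 2.01, not passing, with it).

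In Mtg16-/- crypts Slc7a5 was at 2181, 1530, 1602 and 1309 scaled counts after DSS and at 699, 985, 676 and 572 without, and rose by a log2 fold change of 1.18 ± 0.20 (adjusted p = 0.00495). Asns, at 3354 to 4035 after DSS and 1590 to 1952 without, rose by 1.04 ± 0.11 (adjusted p = 4.44e-04). Both sets were fully apart. Slc3a2 (0.50 ± 0.13, adjusted p = 0.0262) and Slc7a11 (1.01 ± 0.32, adjusted p = 0.0459) also passed, so that 4 of 10 genes were called, all higher, where 13.5% of genes tested were called higher (24.1% in either direction), and the median over the 10 was 0.78 against 0.02. Slc3a2 lost its call without untreated replicate 1 or 4 or DSS replicate 1 or 4 (adjusted p up to 0.0835), and Slc7a11 without untreated replicate 1, 3 or 4 or DSS replicate 1, 2 or 3 (up to 0.104).

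Slc3a1 in Mtg16-/- crypts turned on the library that went against its label. It was at 517, 800, 988 and 1287 scaled counts after DSS and at 590, 4578, 82.8 and 312 without, where 4578 is untreated replicate 2. With that library the difference was 0.72 ± 0.99 (adjusted p = 0.603). Without it, Slc3a1 rose by 1.77 (adjusted p = 0.0322) and Chac1, 0.83 (adjusted p = 0.152) with it, rose by 1.23 (adjusted p = 0.00884), so that 6 of the 10 genes were called, where 30.4% of all genes were in that fit. The other 4 called genes then differed by 1.33 (Slc7a5, adjusted p = 4.97e-04), 1.08 (Asns, adjusted p = 2.40e-04), 0.48 (Slc3a2, adjusted p = 0.0334) and 0.72 (Slc7a11, adjusted p = 0.0376).

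In WT crypts of the Mtg16-null colony, Slc7a5 was at 1323, 1315 and 655 scaled counts after DSS and at 429, 439, 491 and 893 without, with 1 DSS library below 1 untreated library (0.96 ± 0.31, adjusted p = 0.118). It was called without untreated replicate 4 (1.21, adjusted p = 0.0369) or without DSS replicate 3 (adjusted p = 0.0408). Slc3a1 was at 373, 1015 and 265 after DSS and 213, 574, 223 and 570 without, with overlap (0.39 ± 0.49, adjusted p = 0.667). Asns alone passed, at 3916, 3064 and 1978 against 1307 to 1666 (0.95 ± 0.22, adjusted p = 0.0295), so that 1 of 10 genes was called, where 5.01% of genes tested were (3.78% called higher), with a median of 0.28 over the 10 and 0.00 over all genes. Its call was lost without any 1 of the 4 untreated replicates or DSS replicate 1 or 2 (adjusted p up to 0.0984). Slc7a11, at 231, 465 and 530 against 226 to 313, was called only without DSS replicate 1 (0.94, adjusted p = 0.0487, against 0.57, adjusted p = 0.274). Ddit3, at 206 to 298 after DSS and 351 to 449 without, did not pass by limma (-0.61, adjusted p = 0.116) but did by DESeq2 (-0.60, adjusted p = 0.0450), as did Slc7a5 (adjusted p = 0.0264) and Asns, where 9.19% of all genes passed by DESeq2.

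**Figure D3:**
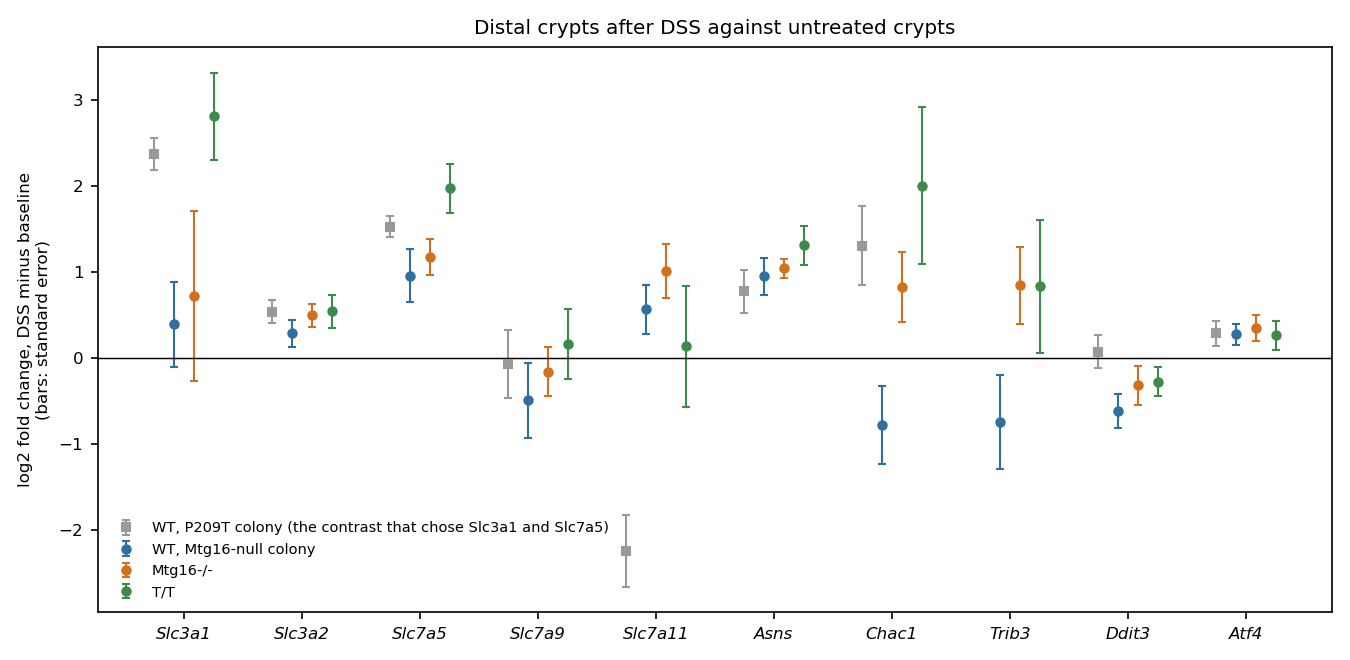
Log2 fold change (DSS minus untreated, bars are standard errors) of the 10 genes in distal crypts of 4 groups; gray squares mark the contrast that chose Slc3a1 and Slc7a5, and Trib3 was below the count filter there. Slc7a5 and Asns were above 0 in each group, and Slc7a11 lay at -2.24 in WT of the P209T colony and at 1.01 in Mtg16-/-.

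Treated and untreated crypts were sequenced under different requests in each colony, so DSS and request cannot be told apart. Genes of the proximal colon moved with DSS as well: the 50 proximal genes had means of 1.60 to 2.26 log2(CPM + 1) in T/T after DSS against 0.69 to 1.08 without, of 1.11 to 1.46 against 0.70 to 1.10 in WT of the Mtg16-null colony, of 1.79 to 2.22 in Mtg16-/- against 0.61 to 0.93 (5.30 in replicate 2), and of 1.19 to 1.53 against 0.86 to 1.05 in WT of the P209T colony. The 50 genes highest in distal WT crypts moved the other way, at 3.03 to 3.81 against 4.51 to 4.73 in T/T. They had 4.26 to 4.36 against 4.56 to 4.91 in WT of the Mtg16-null colony and 3.95 to 4.47 against 4.54 to 4.84 in WT of the P209T colony. In Mtg16-/- they had 3.34 to 3.74 against 0.85 (replicate 2) to 4.75. The part of both sets in the Slc3a1 values was not tested. Myeloid markers (9 genes) had means of 3.95 to 5.22 in Mtg16-/- after DSS against 1.77 to 2.27 without, 2.89 to 3.15 in T/T against 1.98 to 2.45, and 2.39 to 3.53 in WT of the Mtg16-null colony against 1.71 to 2.06. Fibroblast markers (6 genes) had 1.03 to 2.84 in Mtg16-/- after DSS against 0.23 to 0.57 without, and 0.94 to 1.05 in WT of that colony against 0.15 to 0.74. They had 0.55 to 0.96 against 0.20 to 0.47 in WT of the P209T colony and overlapped in T/T (0.45 to 1.47 against 0.11 to 1.89). Myeloid markers overlapped in WT of the P209T colony (1.89 to 2.57 against 2.12 to 2.26). Proliferation markers (6 genes) were lower after DSS in WT of the P209T colony (5.24 to 5.96 against 6.62 to 7.18) and overlapped in the other groups. Red blood cell markers (3 genes) had 1.02 to 3.54 in Mtg16-/- after DSS against 0.34 to 0.60 without. Absorptive colonocyte markers were lower in WT of the Mtg16-null colony, at 7.02 to 8.03 after DSS against 8.05 to 8.76 without. Their part in these differences was not tested.

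The other genes of the pathway were counted from fixed lists. The shares of all genes that rose were 13.5% in Mtg16-/-, 2.46% in T/T and 3.78% in WT of the Mtg16-null colony. Of 23 other ATF4 pathway targets tested, 9 rose and 2 fell in Mtg16-/- crypts after DSS, among the former Psat1 (1.06), which makes serine, and Shmt2 (1.13), a serine hydroxymethyltransferase, and the median over the list was 0.47 against 0.02 over all genes. In T/T crypts 3 rose and none fell (Stc2 1.93, Aldh18a1 1.15 and Mthfd2 1.20, median 0.47 against -0.04), and in WT of the Mtg16-null colony 2 rose (Aldh18a1 0.79 and Psat1 0.87) and 1 fell (Gdf15 -0.96). Of 20 cytosolic aminoacyl-tRNA synthetases, 9 rose in Mtg16-/- (led by Mars, 0.71), 1 in T/T (Wars, 1.08) and none passed in WT of the Mtg16-null colony. Mars shares 68 exon bases with Ddit3 on the opposite strand. Other amino acid transporters went both ways, in Mtg16-/- in shares near those of all genes. There, 3 of 25 rose, led by the glutamine transporter Slc38a5 (6.42), and 3 fell, Slc16a10, Slc6a14 (-0.93) and Slc6a19 (-0.99), where 13.5% of all genes rose and 10.6% fell. In WT of that colony 1 of 25 rose (Slc38a5, 5.48) and 2 fell (Slc36a1 -0.95 and Slc15a1 -1.25), where 1.23% of all genes fell, and in T/T 2 of 24 rose (the cationic amino acid transporter Slc7a1, 1.13, and Slc7a14, 1.53) and 1 fell (Slc7a2 -2.15), where 1.59% did. Of 13 genes of eIF2, its kinases and eIF2B, 4 rose in Mtg16-/- (led by Eif2b2, 0.77), with a list median of 0.02, and none passed in T/T or in WT of that colony. Of 20 endoplasmic reticulum chaperones and unfolded protein response genes, 3 rose in Mtg16-/- (led by Manf, 0.60), a share near the 13.5% of all genes called higher there and with a list median of 0.10. In T/T 3 rose (led by Hyou1, 1.22, list median 0.50), and in WT of the Mtg16-null colony none passed. These lists and that of NRF2 targets gave no call between genotypes in any tissue by limma.

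Between genotypes after DSS, none of the 10 genes passed the threshold by limma. Chac1 was higher without overlap in both colonies. Groups did not overlap for 2 of the 10 genes in the Mtg16-null colony and for 1 in the P209T colony. The share of all genes without overlap was not counted, so these separations are a description only. In the Mtg16-null colony Chac1 (chr2:119351229-119354381, plus strand) was at 53.0, 54.7 and 50.2 normalized counts in WT (mean 52.6 ± 2.3, SD, n = 3) and at 144, 144, 164 and 104 in Mtg16-/- (138.9 ± 25.1, SD, n = 4). The lowest Mtg16-/- value was above the highest WT value (log2 fold change 1.37 ± 0.26, adjusted p = 0.0534). Trib3 (chr2:152337422-152344032, minus strand) was at 8.65, 3.91 and 13.7 in WT and at 38.6, 38.7, 28.1 and 15.8 in Mtg16-/-, also without overlap (1.74 ± 0.51, adjusted p = 0.167). Of all genes, 0.629% were called, and 3 of the 10 had an unadjusted p under 0.05, as did 12.4% of all genes. The median over the 10 was 0.34 against 0.00 over all genes, with 10 of 10 values above 0, or 7 without WT replicate 1. Libraries with the same replicate number deviated together in this table (correlations 0.317 to 0.554), and with the replicate number as a block Chac1 (1.50, adjusted p = 0.00616), Trib3 (2.01, adjusted p = 0.0392) and Slc7a5 (0.77, adjusted p = 0.0368) passed, where 8.78% of all genes did. By DESeq2 Chac1 passed (1.41, adjusted p = 6.06e-05), with 5.02% of all genes, and by edgeR none of the 10 did (0.601% of all genes). The myeloid markers stood at 3.95 to 5.22 in Mtg16-/- and 2.39 to 3.53 in WT, the red blood cell markers at 1.02 to 3.54 and 0.22 to 0.69 and the 50 proximal genes at 1.79 to 2.22 and 1.11 to 1.46. The 50 distal genes were lower in Mtg16-/-, at 3.34 to 3.74 against 4.26 to 4.36 in WT. The part of these sets in the Chac1 and Trib3 values was not tested.

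In the P209T colony after DSS, Chac1 was at 72.0, 68.0 and 68.1 normalized counts in WT and at 112, 146 and 253 in T/T. The groups were apart (log2 fold change 1.20 ± 0.35), with an adjusted p of 0.374 by limma and 0.0468 by DESeq2. Trib3 was at 2.82, 7.80 and 8.62 in WT and at 16.1, 8.58 and 32.6 in T/T, with the lowest T/T library just under the highest WT library (1.36 ± 0.61, adjusted p = 0.608). None of the 10 genes was called by limma (0% of all genes tested), 1 had an unadjusted p under 0.05 (8.77% of all genes), and edgeR called none of them (0% of all genes) and DESeq2 only Chac1 (2.45%). Myeloid markers (2.89 to 3.15 in T/T, 1.89 to 2.57 in WT), plasma cell markers (1.83 to 1.95 and 1.12 to 1.43), red blood cell markers (1.28 to 2.82 and 0.43 to 1.19), proliferation markers (6.07 to 6.50 and 5.24 to 5.96) and the 50 proximal genes (1.60 to 2.26 and 1.19 to 1.53) were also higher in each T/T library than in any WT one. The 50 distal genes were lower in each T/T library (3.03 to 3.81) than in any WT one (3.95 to 4.47). The part of these sets was not tested. The WT libraries of this colony are those of the contrast that chose Slc3a1 and Slc7a5, so their differences between T/T and WT, here and in untreated distal crypts, are not independent of that choice.

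**Figure D4:**
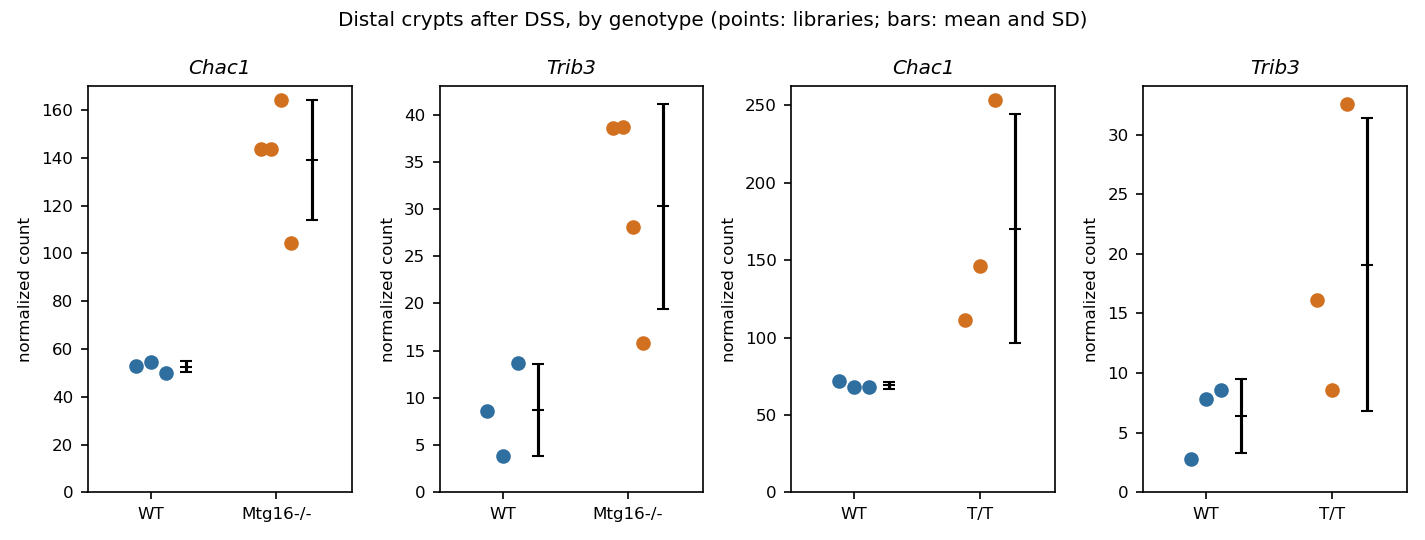
Normalized counts of Chac1 and Trib3 in distal crypts after DSS, by genotype, with points for libraries and bars for mean and SD; the left pair of panels is the Mtg16-null colony and the right pair the P209T colony. Chac1 was higher in every mutant library than in any WT library of its colony, but was not called by limma in either.

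The difference of the DSS effects between Mtg16-/- and WT of that colony was 1.60 ± 0.65 for Chac1 and 1.58 ± 0.70 for Trib3 (both adjusted p = 1.00, and 2 of 10 genes with an unadjusted p under 0.05, against 3.6% of all genes). Without untreated Mtg16-/- replicate 2 it was 2.00 (adjusted p = 0.251) and 1.78 (adjusted p = 0.619). No gene was called there by limma or edgeR (0%), and none of the 10 by DESeq2 (0.189% of all genes). In this colony Chac1 was at 111, 41.6, 57.2 and 184 scaled counts in untreated WT crypts, wider than the 46.2 to 50.2 after DSS.

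In untreated crypts none of the 10 genes passed between genotypes by limma. For Mtg16-/- against WT, 0 were called in proximal crypts (0.0645% of all genes, none of the 10 with an unadjusted p under 0.05, against 5.96% of all genes) and 0 in distal crypts (0.239%, 1 of the 10 with an unadjusted p under 0.05, against 4.63%). There Slc3a1 was at 191, 512, 200 and 512 normalized counts in WT and at 545, 4248, 75.8 and 288 in Mtg16-/-, a difference of 0.58 ± 1.06 that became -0.47 ± 0.65 without replicate 2. For T/T against WT, 0 were called in proximal crypts (0.232%, 3 with an unadjusted p under 0.05, against 12%) and 0 in distal crypts (0.0369%, none of the 9 tested with an unadjusted p under 0.05, against 4.65%). In the distal tables edgeR (0.21% of all genes for Mtg16-/-, 0.0369% for T/T) and DESeq2 (1.45% and 0.392%) called none of the 10. The 3 in proximal crypts were Slc7a9, at 258 and 417 in T/T and 610 and 672 in WT (-0.96, adjusted p = 0.222), Asns (-0.45, adjusted p = 0.290) and Chac1 (-1.10, adjusted p = 0.299). Untreated distal T/T replicate 1 stood apart in Chac1, at 193 where the other 3 were at 10.2 to 30.5.

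In T/T tumors the transporters differed in part from T/T crypts after DSS. Against untreated crypts, Slc7a5 was called higher in both, while Slc3a1 was higher after DSS and lower in tumors. Slc3a2 was higher without overlap in both but passed only in tumors, as did Slc7a11 and Slc7a9. T/T tumors had 1678, 2276 and 1507 scaled counts of Slc7a11, against 47.0, 268, 207 and 141 in untreated distal T/T crypts. The tumors were all far above the crypts (log2 fold change 3.68 ± 0.56, adjusted p = 7.83e-04). Its heavy chain Slc3a2 was at 3829, 5073 and 3751 against 2041 to 2427 (0.89 ± 0.13, adjusted p = 6.03e-04), and Slc7a5 was at 1853, 1953 and 2039 against 400 to 629 (1.89 ± 0.18, adjusted p = 6.6e-05). Slc3a1 was lower, at 49.0, 42.9 and 9.85 against 73.4 to 365 (-2.40 ± 0.69, adjusted p = 0.0177), as was its light chain Slc7a9 at 113, 174 and 91.0 against 226 to 554 (-1.79 ± 0.37, adjusted p = 0.00387). So the members of the Slc3a2 pair and those of the Slc3a1 pair moved in opposite directions.

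Trib3 was also higher in T/T tumors, at 63.1, 99.3 and 80.0 against 2.26 to 29.0 in crypts (3.06 ± 0.69, adjusted p = 0.00587). Asns (0.27), Chac1 (1.28), Ddit3 (-0.26) and Atf4 (0.09) did not pass. In all 6 of 10 genes were called, where 62.1% of all genes tested were. Of the 10, 4 were called higher (33.3% of all genes) and 2 lower (28.8%), and the median over the 10 was 0.58 against 0.13 over all genes. Without T/T tumor replicate 3, Slc3a1 was no longer called (-1.70, adjusted p = 0.0507), and without untreated T/T replicate 1 Chac1 was (2.13, adjusted p = 0.00355). Asns was called without either of these libraries (adjusted p = 0.0403 and 0.0450), and Ddit3 was called lower when each library was centred on its median (-0.46, adjusted p = 0.0297). Relative to the mean of the 7 libraries, the trend of level with transcript length was -0.28 to -0.05 log2 units per doubling in the crypts and 0.16 to 0.18 in the tumors. With that trend removed, a step chosen after seeing the data, Atf4 (0.32, adjusted p = 0.00860) and Asns (0.43, adjusted p = 0.0141) were called as well, 8 genes in all, where 61.3% of all genes were, and Ddit3 stood at 0.25. Tumors were whole dissected tissue and crypts were chelated, with separate requests, so tumor, preparation and request cannot be told apart. Fibroblast, smooth muscle, endothelial, myeloid and plasma cell markers were each higher in all T/T tumors than in all untreated distal T/T crypts, as were the 50 proximal genes (2.34 to 2.45 in tumors, 0.69 to 1.08 in crypts) and ileal and Paneth cell markers (3.29 to 3.34 and 1.74 to 2.06). Absorptive colonocyte markers were lower (5 of 5 called, 4.04 to 5.27 against 7.94 to 8.82), as were epithelial markers (6 of 6 called, 8.45 to 8.63 against 9.96 to 10.35). The part of these markers in the differences was not tested. WT tumors, given without a test, had 33.9 ± 7.0 CPM of Slc7a11 against 5.87 ± 0.27 in untreated WT crypts (SD, n = 3 each), and 1.38 ± 0.75 of Slc7a9 against 13.4 ± 1.8.

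**Figure D5:**
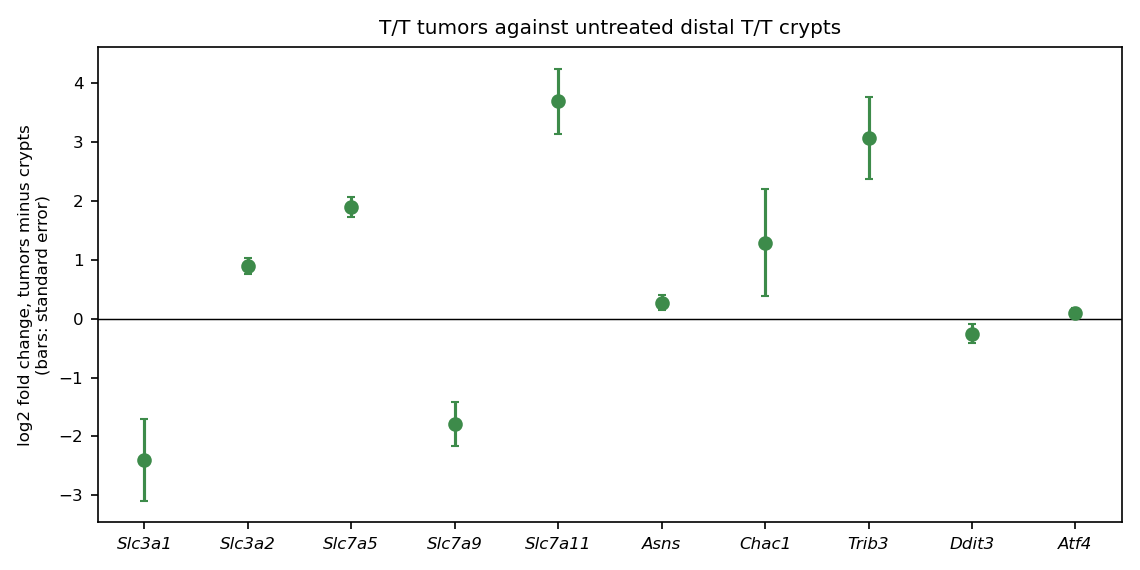
Log2 fold change (T/T tumors minus untreated distal T/T crypts, bars are standard errors) of the 10 genes. Slc7a11 (3.68), Trib3 (3.06), Slc7a5 (1.89) and Slc3a2 (0.89) were higher and Slc3a1 (-2.40) and Slc7a9 (-1.79) lower.

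Between T/T and WT tumors none of the 10 genes was called by limma, edgeR or DESeq2 (0% of all genes by limma and edgeR, 0.151% by DESeq2), and none had an unadjusted p under 0.05 (2.47% of all genes). Slc7a9 came nearest, at 147, 221 and 119 normalized counts in T/T and 139, 75.7 and 46.6 in WT (0.98 ± 0.43, adjusted p = 0.998), with overlap.

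Of the other ATF4 pathway targets in T/T tumors, 13 of 23 were higher (33.3% of all genes were), led by Jdp2 (3.26) and Pycr1 (2.35), a proline synthesis enzyme, and 5 lower (28.8%), led by Cth (-2.65). Of 17 target genes of NRF2, the antioxidant response factor that also acts on Slc7a11, 2 were higher (Hmox1 3.39 and Me1 3.39) and 11 lower, against the same shares of all genes, among them Nqo1 (-1.37) and Srxn1 (-1.01).

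Across the 38 libraries the strongest likeness within the list was that of Slc3a2 and its light chain Slc7a5 (Pearson r = 0.87 and Spearman rho = 0.89 of log2(CPM + 1)). Asns and Atf4 had r = 0.74, and Slc7a5 and Asns 0.63, or 0.89 over the 32 crypt libraries alone. Slc3a1 and its light chain Slc7a9 had r = 0.53, but 0.02 over the crypts, so that their likeness rested on the tumors. The libraries share tissue, batch and treatment, and these values carry no test. Among 12952 genes with a mean of at least 1 CPM, the patterns nearest to Slc3a1 were those of Higd1a (r = 0.94), H2-T18 (0.92) and Dpf3 (0.92), and nearest to Slc7a5 those of Snx8 (0.92), Dusp7 (0.92) and Inf2 (0.92).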

How the data were processed

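Per the submitters' processing notes and the methods, the authors trimmed paired-end reads with fastp 0.20.0, quantified them with Salmon 1.3.0 against GENCODE vM21 (mm10) and summed them per gene, and normalized them with DESeq2 1.26.0 in R 3.6.3. The signal values that the authors deposited are read counts scaled by DESeq2 size factors, set separately for 9 tables. Columns of the authors' fold changes and p-values were not used. Whole reads were recovered in 38 of 42 libraries (median total 46659625.5 reads), not in the 4 proximal mutant libraries.

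Log2(normalized count + 1) was tested with limma 3.58.1 (trend, two-sided) in R 4.3.3 for genes with a mean of at least 10, with Benjamini-Hochberg adjustment over all genes and a threshold of 0.05. Libraries of different tables were compared on recovered reads scaled by TMM (edgeR 4.0.16), where a scaled count is the TMM-scaled share of reads times a common library size. DESeq2 1.42.0 and edgeR were run on recovered reads. Calculations were tested on simulated data. The members and gene lists were chosen with earlier results of these data known. Named are the 10 members, at most 4 genes per list and direction with the smallest adjusted p, and the 3 genes most like Slc3a1 and Slc7a5. The labels do not say what replicate numbers mark. The replicate number was fitted as a block, as an alternative, in each tested comparison. Only in Mtg16-/- and WT crypts after DSS was it read as marking pairs, where the 3 pairs correlated at 0.317 to 0.554. In untreated proximal crypts the pairs also correlated above 0.1 (0.147), but with 2 libraries per group both pairs give the same value. Each library is taken as a separate mouse, which the labels do not state, so p-values measure the spread between libraries. Proximal and distal libraries could share mice, and the test between segments treats them as separate. Sequences are from RefSeq GRCm38.p6 and gene positions from GENCODE vM21.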

Additional observations from a re-analysis of the deposited data

Results flagged for a closer look

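Of 40 sets of values checked (each gene in each group of 4 libraries), 3 held a library far from the others by Dixon's test, and chance alone gives about 1 in 20. Slc3a1 in untreated distal Mtg16-/- crypts was at 4248 normalized counts in replicate 2 and at 75.8 to 545 in the others. Chac1 in untreated distal T/T crypts was at 193 in replicate 1 and at 10.2 to 30.5 in the others. Slc7a5 in untreated distal WT crypts of the Mtg16-null colony was at 802 in replicate 4 and at 385 to 439 in the others.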

How the results depend on the processing

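Over the alternatives, 1646 of 1795 values of single genes kept their direction and their side of the threshold, 25 were called only under the alternative and 42 lost their call. The sign changed in 82, of which 0 were called in either fit. Leaving out each library in turn carried across 0 the log2 fold changes, not called as reported, of Slc3a1 (-0.63 to 0.29), Slc3a2 (-0.00198 to 0.065), Slc7a5 (-0.0443 to 0.22), Slc7a9 (-0.31 to 0.40), Chac1 (-0.82 to 0.0831) and Trib3 (-0.37 to 0.24) between Mtg16-/- and WT proximal crypts, Slc3a1 (-0.47 to 1.46), Slc7a11 (-0.23 to 0.18), Chac1 (-0.62 to 0.15), Trib3 (-0.0614 to 0.44) and Ddit3 (-0.30 to 0.0126) between Mtg16-/- and WT distal crypts, Slc3a1 (-0.43 to 0.24), Slc7a11 (-0.20 to 0.41), Ddit3 (-0.17 to 0.30) and Atf4 (-0.0314 to 0.0781) between T/T and WT proximal crypts, Slc3a1 (-0.43 to 0.34), Slc7a5 (-0.0462 to 0.17), Asns (-0.17 to 0.0408) and Chac1 (-0.31 to 1.06) between T/T and WT distal crypts, Slc7a9 (-0.11 to 0.28) between segments, Slc7a9 (-0.31 to 0.45), Slc7a11 (-0.056 to 0.54) and Ddit3 (-0.0058 to 0.26) between Mtg16-/- and WT after DSS. It did the same for Slc3a2 (-0.0865 to 0.23), Slc7a9 (-0.72 to 0.0889) and Atf4 (-0.0297 to 0.23) between T/T and WT after DSS, Slc3a1 (-0.95 to 0.17), Slc3a2 (-0.18 to 0.0162), Slc7a5 (-0.16 to 0.0398), Slc7a11 (-0.0383 to 0.26), Trib3 (-0.38 to 0.37) and Ddit3 (-0.0408 to 0.14) between T/T and WT tumors, Slc3a1 (-0.17 to 0.80) for DSS in WT of the Mtg16-null colony, Slc3a1 (-0.15 to 1.77) and Slc7a9 (-0.42 to 0.0567) for DSS in Mtg16-/-, Slc7a9 (-0.18 to 0.48) and Slc7a11 (-0.52 to 0.68) for DSS in T/T, Slc3a1 (-0.55 to 1.38), Slc7a5 (-0.12 to 0.39), Asns (-0.18 to 0.32) and Atf4 (-0.0554 to 0.15) for the difference of DSS effects. Further values, not called as reported, changed sign with median centring Slc3a1 (0.0518) between T/T and WT distal crypts, Slc3a2 (-0.032) and Atf4 (-0.0248) between T/T and WT after DSS, Atf4 (-0.11) for tumors against crypts, with the replicate block Slc7a5 (-0.0462) between T/T and WT distal crypts, Slc7a9 (-0.24) between segments, Slc7a9 (-0.24) between Mtg16-/- and WT after DSS, by edgeR Slc3a1 (0.23) between T/T and WT distal crypts, Slc7a9 (-0.0381) between Mtg16-/- and WT after DSS, Slc3a1 (-0.64) for DSS in Mtg16-/-, Slc3a1 (-1.11) for the difference of DSS effects, by DESeq2 Slc3a1 (0.23) between T/T and WT distal crypts, Slc7a9 (-0.0399) between Mtg16-/- and WT after DSS, Slc3a1 (-0.64) for DSS in Mtg16-/-, Slc3a1 (-1.11) for the difference of DSS effects, with the length trend removed Slc7a9 (-0.0353) and Ddit3 (-0.00786) between Mtg16-/- and WT after DSS, Ddit3 (0.018) between T/T and WT after DSS, Ddit3 (0.25) for tumors against crypts. Of the 10 genes, the number called between Mtg16-/- and WT after DSS was 0, and became 1 with median centring, 3 with the replicate block and 1 by DESeq2. Between T/T and WT after DSS it became 1 by DESeq2. For DSS in WT of the Mtg16-null colony it was 1, and became 0 without a filter, 2 with the replicate block and 3 by DESeq2, and for DSS in T/T it was 3, and became 1 with the replicate block. For DSS in Mtg16-/- it was 4, and became 3 without a filter or with the replicate block, between segments it was 6 (Slc3a1 and Slc7a5 counted, whose choice used 3 of the libraries), and became 5 with request as a covariate or within request 4149 and 7 with the block, and for tumors against crypts it was 6, and became 7 with median centring and 8 with the length trend removed. The replicate block was fitted in each tested comparison, but replicate numbers were read as marking pairs only between Mtg16-/- and WT after DSS. Leaving out each library in turn gave 5 to 7 genes between segments, 0 to 2 for DSS in WT of the Mtg16-null colony, 2 to 6 in Mtg16-/- and 0 to 3 in T/T, 6 to 8 for tumors, 0 between genotypes, and 1 to 9086 genes of all kinds in the contrast that chose Slc3a1 and Slc7a5. Over all settings, the number of all genes called ranged from 6 to 32 for proximal and 1 to 200 for distal Mtg16-/- crypts, 0 to 151 for proximal and 0 to 53 for distal T/T crypts, 2014 to 6333 between segments, 28 to 1271 for Mtg16-/- and 0 to 334 for T/T after DSS, 0 to 24 between tumors, 366 to 1290, 1570 to 4797 and 48 to 1364 for DSS in WT of the Mtg16-null colony, Mtg16-/- and T/T, 7929 to 9990 for tumors against crypts and 0 to 27 for the difference of DSS effects. The cause was not tested.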
